A study of Mus musculus with 6 samples.

Results

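The regions described here are the 500-kb windows of mouse chromosome 2. Every mapped read sequence on the chromosome that carried a gene annotation was placed by its start in a fixed grid of 500-kb windows, and its reads were summed for each library and scaled to the gene reads of that library. The grid has 364 positions from the start of the chromosome to its last gene read, and 279 of them held at least 1 gene read, out of 3730 such windows over all chromosomes. The chromosome was picked because its gene reads were higher as a whole in CD24+ cells, so it was chosen by the measured CD24+ and CD24- gene reads themselves, the same values as given below. They are therefore a description, and no difference between the groups is used as support for another.

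The libraries came from Mvt1, a mammary carcinoma cell line of FVB/N mice labelled as epithelial cancer cells, kept in DMEM with serum and sorted on a flow cytometer by CD24 on the cell surface. One group is CD24- and the other CD24+, each with RNA from 3 plates, and no other treatment or allele separates them in the labels. The question of the study was which transcripts differ between the subset that forms tumours readily, CD24+, and the other. No independent sorts are described, so SDs, standard errors and calls may measure only the spread between plates.

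A window is a neighbourhood, not a gene. Genes that lie near each other on a chromosome can share regulatory elements, a chromatin domain or the number of DNA copies of the stretch, and summing messenger RNA along a chromosome is a usual way to look for stretches that are expressed together. Mouse chromosome 2 is among the longest mouse chromosomes and carries genes of many kinds, among them Vim (vimentin, an intermediate filament of mesenchymal cells), Itga6 and Itga8 (integrin subunits that bind matrix), Lama5 (a laminin chain of basement membranes), Hspa5 (the chaperone BiP of the endoplasmic reticulum), Pcna (the sliding clamp of DNA replication) and B2m (the light chain of MHC class I).

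The 6 libraries held 9046025 to 25692147 mapped reads, of which 71.8% to 74.3% were gene reads, and CD24+ replicate 1 was the shallowest. Levels below are reads per 1000000 gene reads of the library (RPM). Across genes, log2 values correlated between 0.989 and 0.997 among libraries of a group and between 0.915 and 0.928 across the groups. Cd24a, the gene of the sorted marker, had 6.98 to 12.3 RPM in CD24- and 71.8 to 85.3 in CD24+ libraries. Of 7 epithelial markers Krt8 and Krt18 gave nearly all reads, with a summed level of 1846 to 2064 in CD24- and 756 to 884 in CD24+ libraries, while Krt5, Krt14, Epcam and Cdh1 were at or near 0 in every library. In bulk RNA, fewer cells of a type and less RNA per cell cannot be told apart.

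Each deposited read is 47 bases long, and 11 of them show what the windows are made of. The first pair come from the window that has most reads on the chromosome, and each has most copies among the reads there that match the same transcript. They are annotated to Myo3a, a gene of a myosin of sensory hair cells, yet their whole length also matches the mitochondrial transcripts of cytochrome c oxidase subunits mt-Co1 and mt-Co2. The other reads lie in coding sequence and match transcripts of their own gene alone. They are the most frequent such read of the leading gene in windows with many reads (Vim, Hspa5, Lama5), in windows far higher in CD24+ cells (Trp53i11, Trim44, Syt13, Stk39) and in windows lower there (Itga6, Gpd2). Positions are 1-based on mm9, letters run 5′ to 3′ on the named strand, and none is in capitals because no part of a read matters more than the rest.
Myo3a, matching mt-Co1 (chr2:22444047-22444093, plus strand): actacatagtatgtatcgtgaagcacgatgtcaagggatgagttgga
Myo3a, matching mt-Co2 (chr2:22443093-22443139, plus strand): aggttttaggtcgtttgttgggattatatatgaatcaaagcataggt
Vim (chr2:13501787-13501833, plus strand): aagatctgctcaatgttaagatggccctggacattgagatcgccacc
Hspa5 (chr2:34631154-34631200, plus strand): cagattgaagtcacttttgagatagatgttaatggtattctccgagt
Lama5 (chr2:179918850-179918896, plus strand): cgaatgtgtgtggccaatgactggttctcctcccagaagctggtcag
Trp53i11 (chr2:93039077-93039123, plus strand): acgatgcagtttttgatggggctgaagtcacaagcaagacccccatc
Trim44 (chr2:102197710-102197756, plus strand): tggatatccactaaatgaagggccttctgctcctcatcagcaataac
Syt13 (chr2:92780985-92781031, minus strand): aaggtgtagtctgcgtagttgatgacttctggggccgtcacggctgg
Stk39 (chr2:68196871-68196917, minus strand): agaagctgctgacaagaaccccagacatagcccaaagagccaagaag
Itga6 (chr2:71687489-71687535, minus strand): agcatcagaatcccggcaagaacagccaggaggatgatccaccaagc
Gpd2 (chr2:57208200-57208246, minus strand): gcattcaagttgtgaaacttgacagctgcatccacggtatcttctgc

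Single reads already differ widely in number. The Myo3a read that matches mt-Co1 was counted 782, 1302 and 703 times in CD24- replicates 1, 2 and 3 and 846, 1306 and 1447 times in CD24+ replicates 1, 2 and 3. The Vim read was counted 275, 253 and 313 times and then 195, 748 and 561 times. In contrast the Syt13 read was absent from the 3 CD24- libraries and was counted 3, 7 and 7 times in the CD24+ libraries, and the Itga6 read was counted 8, 18 and 4 times against 1, 4 and 4 times. These are raw counts of libraries of unequal depth, and the library kit does not mark strand, so overlapping and antisense genes cannot be told apart in any window.

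Gene reads on chromosome 2 made up 8.27%, 8.23% and 8.14% of the gene reads in CD24- replicates 1, 2 and 3 and 9.34%, 9.01% and 8.99% in CD24+ replicates 1, 2 and 3. The group means were 8.21% ± 0.0639 and 9.11% ± 0.194 (SD, n = 3 each), a ratio of 1.11, and the groups did not overlap. This is the pattern for which the chromosome was picked. Reads annotated to Myo3a took 0.549% to 1.07% of all gene reads and were highest in CD24+ replicate 1. With these reads left out of the chromosome and of the total, the shares were 7.68%, 7.63% and 7.63% against 8.35%, 8.50% and 8.47%, a ratio of 1.10. When each distinct sequence was counted once the ratio was 1.08.

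**Figure D1:**
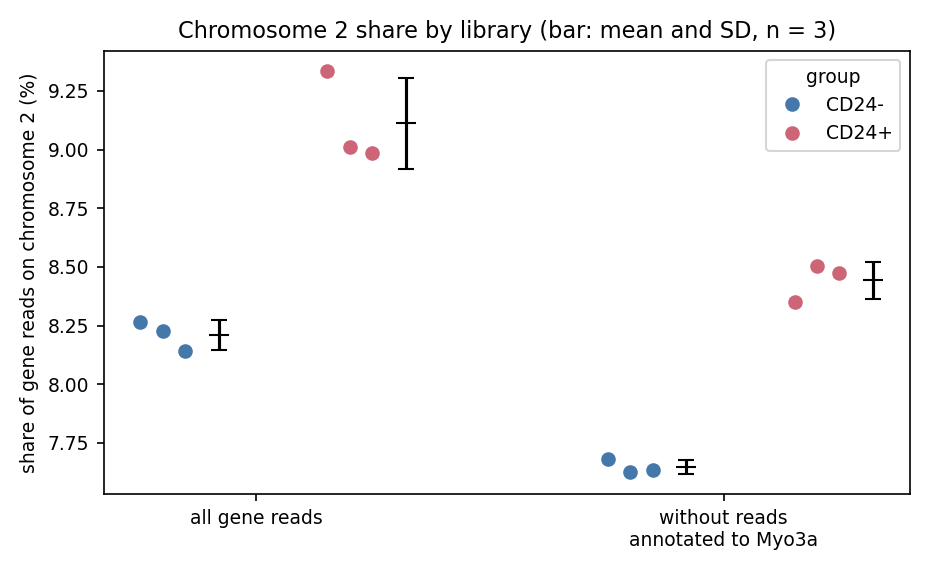
Share of gene reads on chromosome 2 in percent (vertical axis, which does not start at 0) for each of the 3 CD24- and 3 CD24+ libraries, with all gene reads (left) and without the reads annotated to Myo3a (right). Bars give the mean and SD of 3 libraries. CD24+ replicate 1 is the highest library with all reads, at 9.34%, and the lowest of its group, at 8.35%, once the Myo3a reads are left out.

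Enough reads for a fit were present in 249 windows. The other 30 held 335 reads over the 6 libraries, 0.00533% of the gene reads of the chromosome, and none had a mean above 0.506 RPM. Of the 249 windows, 3 were under 1 RPM in every library of 1 group only, so that their place in the fit depends on the other group. The log2 fold change, CD24+ over CD24-, was above 0 in 167 windows and below 0 in 82, that is above 0 in 67.1%, while over all 3210 windows fitted on all chromosomes it was above 0 in 50.7%. A window is called here when its adjusted p is under 0.05 in edgeR's quasi-likelihood test fitted on the windows of all chromosomes. On chromosome 2, 136 windows were called (99 higher in CD24+, 37 lower). Counting distinct sequences gave 95 and 24. Over all chromosomes 55.4% of windows were called, 28.5% higher and 26.9% lower. The 3 values of a group lay outside those of the other in 162 windows, higher in 114 and lower in 48, and over all chromosomes this held in 64.6% of windows, higher in 33.0% and lower in 31.6%. The chromosome thus had about as many called windows as others, and the split between directions is the one it was picked for.

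The median log2 fold change of the windows was 0.15, with quartiles at -0.06 and 0.33, against 0.00 over all windows. Among 20 chromosomes it was the second highest median, after 0.27 for chromosome 15 and before 0.10 for chromosome 3, and that of chromosome 1 was -0.19. Most windows therefore sat close to the median and a small number far from it. The window with the highest value (4.14, 63.5 to 64 Mb, Fign) and that with the lowest (-4.34, 65.5 to 66 Mb, Galnt3) had few reads, with means of 0.725 and 1.54 RPM, and were singled out after their values were seen.

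**Figure D2:**
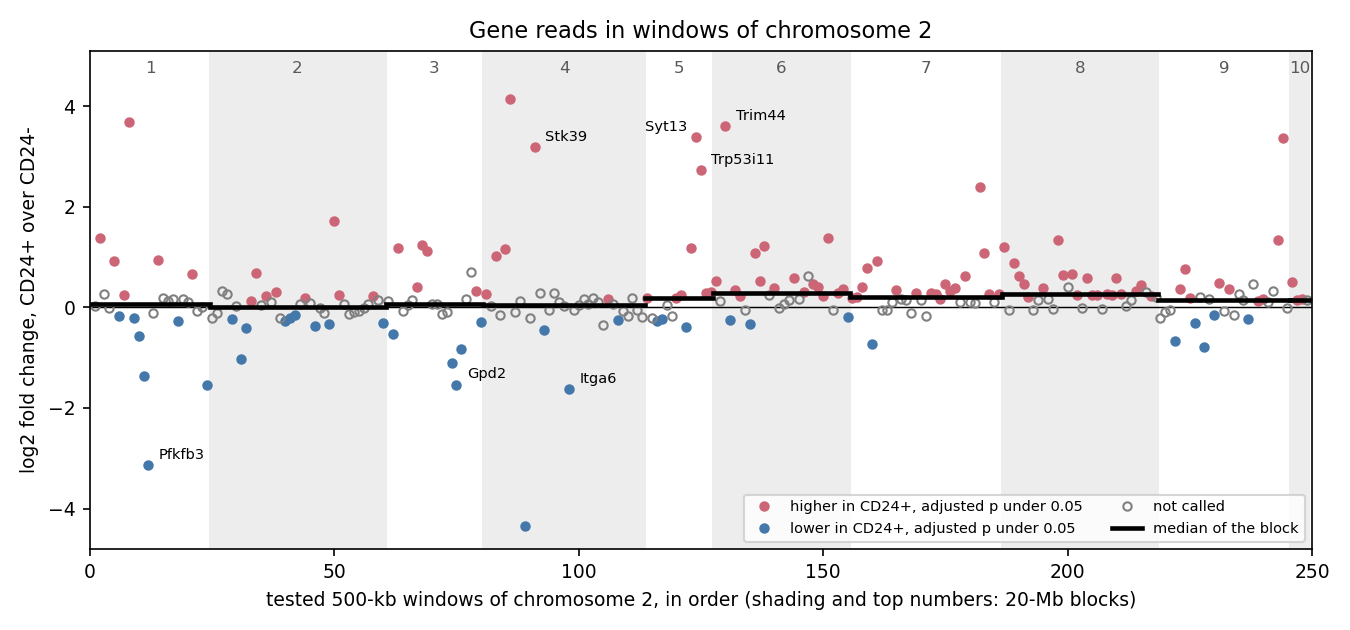
Log2 fold change of gene reads, CD24+ over CD24- (vertical axis), for the 249 fitted windows in their order along chromosome 2 (horizontal axis, window number), with filled points for windows called higher or lower, open points for the others and black lines for the median of each 20-Mb block. The block medians lie between -0.00 and 0.06 in blocks 1 to 4 and between 0.14 and 0.29 in blocks 5 to 10.

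The shift was not spread evenly along the chromosome. Counted in 20-Mb blocks from the first base, the median log2 fold change of the windows was 0.06, -0.00, 0.06 and 0.04 in blocks 1 to 4. It was 0.19, 0.29, 0.21, 0.26, 0.14 and 0.16 in blocks 5 to 10. In blocks 1 to 4, up to 80 Mb, 25 of 113 windows were called higher and 25 lower, and 55.8% had a log2 fold change above 0. In blocks 5 to 10, 74 of 136 windows were called higher and 12 lower, and 76.5% were above 0. The split at 80 Mb was chosen after these values were seen. Block 8, from 140 to 160 Mb, had 20 windows called higher and 0 lower of 32, and block 7 had 18 higher and 1 lower of 31. Block 9, from 160 to 180 Mb, had only 9 higher and 5 lower of 27. Its share above 0, 59.3%, was near that of block 1 (58.3%) and block 3 (60%).

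Summed reads, which are the same reads added up by block, showed the same division. Without the Myo3a reads, blocks 1 to 4 held 30114, 29859 and 30661 RPM in CD24- replicates 1, 2 and 3 and 29969, 31339.8 and 30526 in CD24+ replicates 1, 2 and 3. Means were 30211 ± 409.9 and 30612 ± 689.5 (SD, n = 3 each), and the groups overlapped. Blocks 5 to 10 held 46222, 45912 and 45265 against 52650.0, 53213 and 53729.5 RPM. Their means were 45799.5 ± 488 and 53197 ± 539.9, a log2 ratio of 0.22, and every CD24+ library lay above every CD24- library. For single blocks the sums overlapped between the groups in blocks 1, 2, 3 and 4 and did not overlap in blocks 5, 6, 7, 8, 9 and 10. Blocks of other chromosomes were not summed, so no share over all chromosomes stands beside this count. Of single windows on all chromosomes 64.6% did not overlap.

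**Figure D3:**
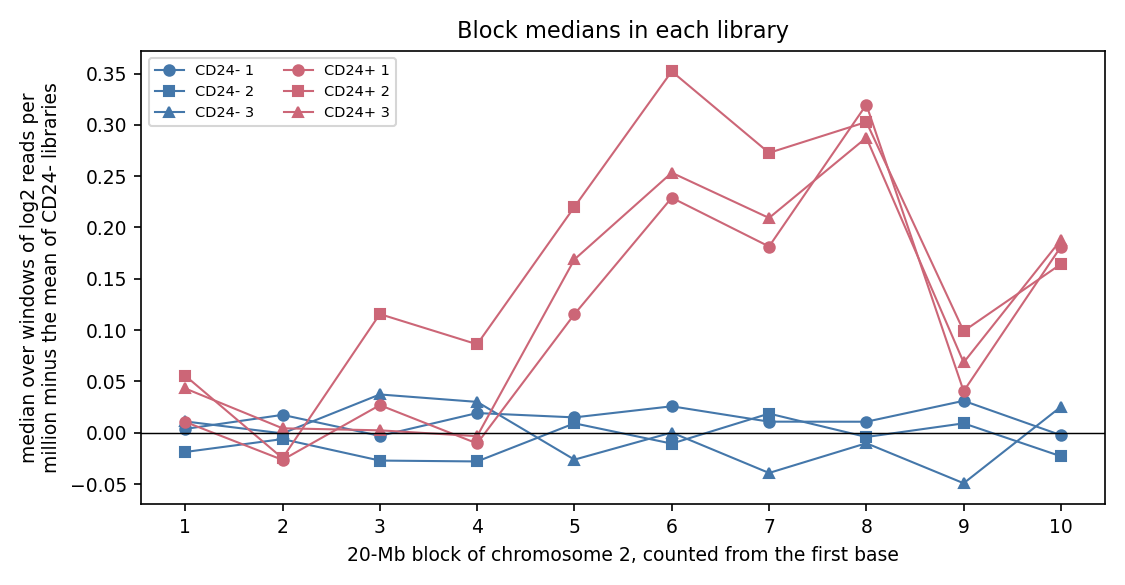
Median over the fitted windows of log2 RPM minus the mean of the CD24- libraries (vertical axis) in each 20-Mb block of chromosome 2 (horizontal axis), for 3 CD24- and 3 CD24+ libraries. In block 2 the CD24+ libraries lie between -0.03 and 0.00 and the CD24- libraries between -0.01 and 0.02. In block 8 the CD24+ libraries lie between 0.29 and 0.32, where the CD24- libraries lie between -0.01 and 0.01.

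In each of blocks 5 to 10 the median of every CD24+ library lay above those of the CD24- libraries, though only slightly in block 9. In block 6 the median window of CD24+ replicates 1, 2 and 3 lay 0.23, 0.35 and 0.25 above the mean of the CD24- libraries (log2), and in block 8 it lay 0.32, 0.30 and 0.29 above. In block 9 the medians were lower, at 0.04, 0.10 and 0.07, and in block 3 they were 0.03, 0.12 and 0.00. CD24- libraries stayed between -0.05 and 0.04 in all blocks.

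Some neighbouring windows lay on the same side of 0. The longest series of fitted windows above 0 numbered 16, from 129 to 140.5 Mb, with a median log2 fold change of 0.27 and 12 windows called higher. It runs from Slc20a1, a phosphate transporter, over Pcna and the phospholipase C genes Plcb1 and Plcb4 to Macrod2. A further 11 in a row, from 153.5 to 159 Mb, had a median of 0.27, and their leading genes include Mapre1, Eif2s2, Samhd1 and Rpn2. Series below 0 were shorter, the longest having 5 windows each, from 9.5 to 12 Mb around Sfmbt2 and Pfkfb3 and from 52.5 to 58 Mb around Gpd2. Across 209 pairs of adjoining windows the log2 fold changes correlated at 0.226, and at 0.235 over 2480 pairs on all chromosomes. These windows share libraries and sometimes a gene that spans both, so the correlation is a description.

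Windows with at least 5 fitted genes allow a look at single genes within a neighbourhood. In blocks 1 to 4, of 22 such windows 8 had more genes above 0 than below, 9 more below, and 5 were equal. In blocks 5 to 10, of 44 such windows 39 had more above 0, 3 more below, and 2 were equal. These counts restate the single genes, of which 49.9% were above 0 in blocks 1 to 4 and 74.7% in blocks 5 to 10. Such windows were not counted on other chromosomes. Every fitted gene was above 0 in 8 windows of blocks 5 to 10 and in 0 windows of blocks 1 to 4. One of them, at 121 to 121.5 Mb, has 13 genes, from Trp53bp1 (0.03), a DNA repair protein, to Mtap1a (2.70), a microtubule-associated protein. The window at 69 to 69.5 Mb is the only one with all 5 genes below 0, from Abcb11 (-1.64) to Dhrs9 (-0.15).

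The 5 windows with most reads were led by Myo3a, Vim, Tubb2c, Hspa5 and Lama5. The 5 windows with most reads in a library took 15.5% to 20.4% of its chromosome 2 gene reads, and 37 to 39 windows held 50% of the reads once the Myo3a window was set aside. Reads were thus spread over many neighbourhoods in every library.

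The Myo3a window, at 22 to 22.5 Mb, had 6335, 6489.5 and 5492 RPM in CD24- replicates 1, 2 and 3 and 10736, 5576 and 5608 in CD24+ replicates 1, 2 and 3. CD24+ replicate 1 stood apart and the other 5 libraries lay close together, so the groups overlapped (log2 fold change 0.26, standard error 0.23). Without CD24+ replicate 1 the value was -0.13. Of 451744 reads annotated to Myo3a over the 6 libraries, 99.3% matched a mitochondrial transcript over their whole length, and 0 matched a Myo3a transcript. The matching sequences fall in a stretch of 3244 bases, chr2:22442811-22446054. By gene, 264588 of the reads matched mt-Co1, 162792 mt-Co2 and 19800 mt-Nd2. Its level is given as reads placed in the window and not as expression of Myo3a.

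Vim led 2 adjoining windows, because the gene lies across a border of the grid. The window at 13.5 to 14 Mb had 2166, 2054 and 2611 RPM in the CD24- libraries and 2352, 2881 and 2411 in the CD24+ libraries, which overlapped. As a whole gene Vim had 3914 ± 464 RPM in CD24- and 4341 ± 483 in CD24+ cells. With a log2 fold change of 0.15 and a standard error of 0.11 it was not called. The window was called higher (0.27) with CD24- replicate 3 left out, and 0.16 with all libraries. Vimentin transcripts were therefore abundant in both groups.

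At 25 to 25.5 Mb a window of 36 annotations is led by Tubb2c (now Tubb4b, a beta-tubulin), with 1944, 1972 and 2058 RPM in CD24- and 2134, 2249 and 2159 in CD24+ libraries. The groups did not overlap, and the difference was small (log2 fold change 0.13, standard error 0.05). Its call as higher was lost with either CD24- replicate 1 or 2 left out (0.11 and 0.12), with either CD24+ replicate 2 or 3 left out (0.11 and 0.14), when distinct sequences were counted (0.07), with the replicate block (0.13) and without its top gene (0.07). Of the Tubb2c reads 46% matched transcripts of that gene alone.

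Hspa5 and Lama5 led windows that were level between the groups although genes in them moved. The Hspa5 window, at 34.5 to 35 Mb, had 1777, 1761 and 1774 RPM in CD24- and 2051, 1746 and 1784 in CD24+ libraries (log2 fold change 0.07). Without Hspa5 the rest of the window was called lower (-0.16), and Traf1, a signalling adaptor of TNF receptors, was at 66.2 ± 5.50 against 28.2 ± 2.11 RPM. The Lama5 window, at 179.5 to 180 Mb, had 1893, 1831 and 1826 against 1739, 1824 and 1929 RPM (-0.01). Lama5 itself was called lower, at 1072 ± 39.1 in CD24- and 869.9 ± 103 in CD24+ cells (-0.30, standard error 0.10), and without it the rest of the window was called higher (0.30). The call of Lama5 was lost with either of CD24- replicates 1 and 2 or CD24+ replicate 1 left out, and lay between -0.31 and -0.22 then.

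**Figure D4:**
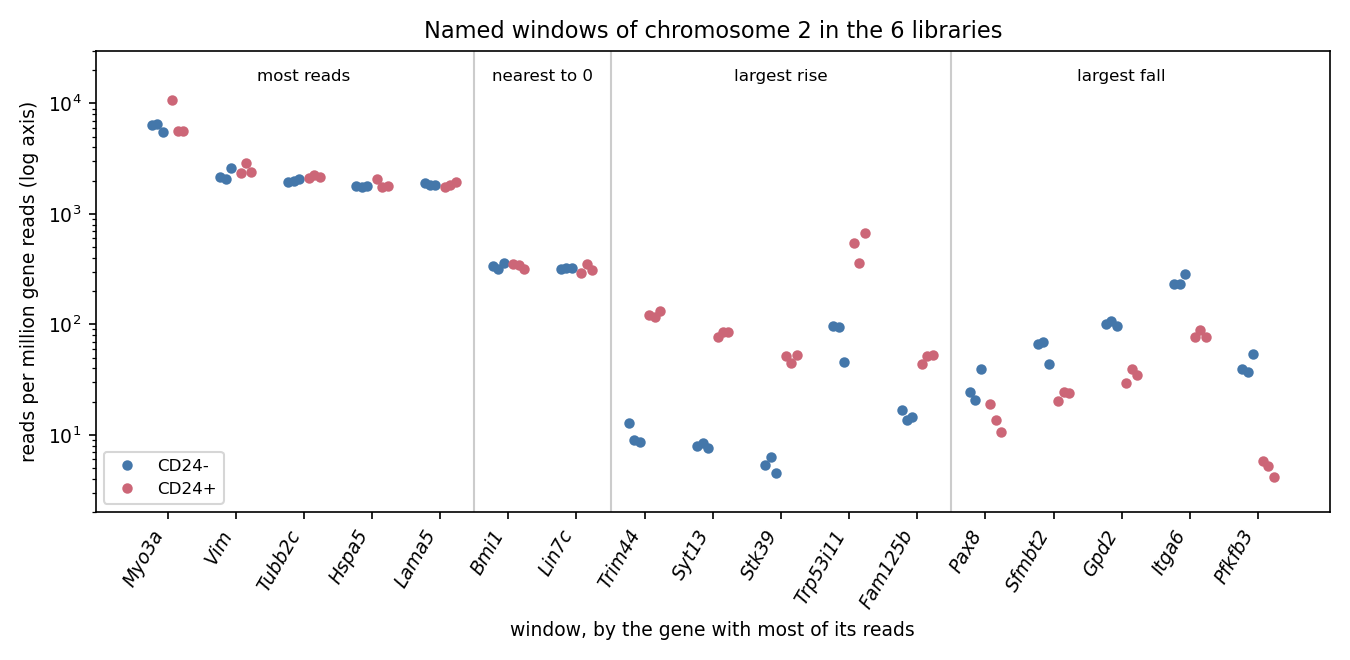
RPM (vertical log axis) in the 3 CD24- and 3 CD24+ libraries for 17 windows of chromosome 2, each under the gene with most of its reads, grouped as the 5 with most reads, the 2 nearest to no difference, the 5 largest rises and the 5 largest falls. In the Trim44 window the CD24+ libraries lie between 118 and 132 and the CD24- libraries between 8.67 and 12.8, while in the Bmi1 window the groups overlap between 317 and 356.

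The 2 windows nearest to a log2 fold change of 0 were led by Bmi1, a Polycomb protein, and Lin7c, a scaffold protein of cell junctions. The Bmi1 window, at 18.5 to 19 Mb, had 336, 318 and 356 RPM in CD24- and 354, 345 and 317 in CD24+ libraries. The Lin7c window, at 109.5 to 110 Mb, had 317, 325 and 326 against 294, 356 and 309. In the latter, Lin7c was called lower (-0.28), a call lost with most libraries left out (-0.29 to -0.21), with TMM (-0.25) and with distinct sequences (-0.17), and the rest of the window was called higher without it (0.81). A sum near 0 can thus hold genes that went opposite ways.

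The largest rises among windows of at least 20 RPM rested on 1 gene each (over 80% of the reads in each group), except that of Trp53i11. Trim44, a tripartite motif protein with a ubiquitin-protease type zinc finger, held 99.8% of the reads at 102 to 102.5 Mb. That window had 12.8, 9.01 and 8.67 RPM in CD24- replicates 1, 2 and 3 and 121, 118 and 132 in CD24+ replicates 1, 2 and 3 (log2 fold change 3.60, standard error 0.13). Its neighbours did not follow. The window before it, led by Traf6, was at 0.12 and was not called, and the window after it, led by the hyaluronan receptor Cd44, was called lower at -0.24.

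Syt13, a synaptotagmin, was the only gene of the window at 92.5 to 93 Mb. It had 7.89, 8.53 and 7.54 RPM in CD24- and 77.0, 86.0 and 85.9 in CD24+ libraries (3.38, standard error 0.10). The adjoining window at 93 to 93.5 Mb is led by Trp53i11, a p53-inducible protein, followed by Cd82, a tetraspanin. It had 96.5, 95.3 and 45.7 RPM in CD24- and 549, 358 and 678 in CD24+ libraries (2.73, standard error 0.30), the widest spread among the named rises. The window before both, at 92 to 92.5 Mb and led by the sulfotransferase gene Chst1, was also called higher (121 ± 9.06 against 274.0 ± 25.1 RPM, 1.18). Together with those led by Ext2 (0.29) and Api5 (0.31) and one further on, they form 6 fitted windows in a row that were called higher. The last of these, at 101 to 101.5 Mb, does not adjoin the Api5 window at 94 to 94.5 Mb, as no window between them was fitted. The window just before the row, at 91.5 to 92 Mb, was called lower (-0.39).

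Stk39, a kinase that acts on cation-chloride cotransporters, was alone in the window at 68 to 68.5 Mb, with 5.33, 6.33 and 4.50 RPM in CD24- and 51.9, 44.7 and 52.6 in CD24+ libraries (3.19, standard error 0.14). Fam125b (now Mvb12b, an ESCRT-I subunit) was alone at 33.5 to 34 Mb, with 17.0, 13.7 and 14.6 against 43.9, 51.3 and 52.5 RPM (1.72, standard error 0.12). These 5 windows were picked among those without overlap between the groups. In CD24- cells the windows of Trim44, Syt13 and Stk39 stood at 8.23%, 9.63% and 10.8% of their CD24+ means.

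The largest falls also rested on single genes by the same measure. Pfkfb3, an enzyme that sets the level of fructose 2,6-bisphosphate and so stimulates glycolysis, held 99.9% of the reads at 11 to 11.5 Mb. Its window had 39.1, 36.7 and 53.9 RPM in CD24- and 5.85, 5.23 and 4.14 in CD24+ libraries (-3.13, standard error 0.19). Just before it, the window of the Polycomb group gene Sfmbt2 had 66.9, 68.7 and 43.8 against 20.3, 24.3 and 24.0 RPM (-1.37, standard error 0.17). The next one back, led by Kin, was called lower as well (-0.57), and the one after Pfkfb3, led by Rbm17, was not (-0.11).

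Itga6, the integrin subunit of laminin receptors, held 89.5% of the window at 71.5 to 72 Mb. That window had 233, 230.4 and 284 RPM in CD24- and 76.7, 89.2 and 76.2 in CD24+ libraries (-1.62, standard error 0.10). Pdk1, a kinase that inhibits pyruvate dehydrogenase, gave the rest, and without Itga6 the window was at 0.12 and was not called. Gpd2, the mitochondrial glycerol-3-phosphate dehydrogenase, was alone at 57 to 57.5 Mb, with 101, 108 and 96.3 against 29.6, 39.4 and 34.9 RPM (-1.54, standard error 0.10). The window of Pax8, a transcription factor of thyroid and kidney, had 24.2, 20.9 and 39.9 against 18.9, 13.5 and 10.7 (-1.03, standard error 0.27), and 10.7% of the Pax8 reads matched transcripts of Pax8 alone.

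Windows were also set against the level of the chromosome itself, a scaling that centres them near 0. With the gene reads of chromosome 2 as the library size, 58 of 248 windows were called higher and 68 lower, 50.8% in all, where 54.3% of the windows of 20 chromosomes were called against the level of their own chromosome, 28.4% higher and 25.9% lower. With the grid shifted by 250 kb the calls were 61 higher and 55 lower of 237. Counting distinct sequences gave 58 and 44 of 248, and leaving out the leading gene of each window gave 41 and 41 of 177. Blocks 1 to 4 had 15 higher and 45 lower, and blocks 5 to 10 had 43 higher and 23 lower. As the chromosome total is itself higher in CD24+ cells, lower here means below the level of the chromosome. It does not mean lower in CD24+ cells, since scaled to all gene reads blocks 1 to 4 had 25 higher and 25 lower.

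Windows far from 0 were more frequent among those with fewer reads or few genes. Of 37 windows with a mean under 20 RPM 11 had an absolute log2 fold change of at least 1. From 20 to 100 RPM it was 14 of 54, from 100 to 300 RPM 4 of 66, and from 300 RPM 2 of 92. Of 46 windows with a single annotation 16 reached that size, against 1 of 57 windows with 8 or more. The share of windows above 0 was 71.7% and 68.4% in these last classes, so that the common shift was present in windows with 1 gene and in windows with many. In 104 of the 249 windows a single gene held over 80% of the reads in each group.

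By gene, 1167 annotations had reads on chromosome 2 and 889 of them were fitted. Of the fitted genes 15 were under 1 RPM in every CD24- library and 5 in every CD24+ library only, so that their place in the fit may depend on the other group, and 14 of the former were called higher and all 5 of the latter lower. Of the 889 genes 576 had a log2 fold change above 0, that is 64.8% against 49.4% over 11125 genes of all chromosomes, and the median was 0.13 against -0.01. In all, 392 genes were called, 280 higher and 112 lower (227 and 55 when distinct sequences were counted), and over all chromosomes 46.4% were called, 22.7% higher and 23.7% lower. The groups did not overlap in 502 genes, higher in 344 and lower in 158, and over all chromosomes in 57.3% of genes, higher in 28.0% and lower in 29.3%. Genes of blocks 1 to 4 divided evenly, with 177 of 355 above 0, 70 called higher and 61 lower. Of 534 genes in blocks 5 to 10, 399 were above 0, 210 were called higher and 51 lower, and their median was 0.21. The genes thus showed the same division as the windows they make up.

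Among genes with a mean log2 level of at least 3 and no overlap between the groups, the 10 largest rises were Wipf1, Chac1, Trim44, Tshz2, Cugbp2, Slc43a3, Prrx2, Syt13, Cdh26 and Trp53i11, with log2 fold changes between 3.34 and 4.02. Wipf1, which binds the WASP proteins that drive actin assembly, had 0.853, 0.863 and 0.901 RPM in CD24- and 15.4, 14.4 and 13.4 in CD24+ libraries. As it was under 1 RPM in every CD24- library, its place among the named rises rests on the CD24+ level. Chac1, a glutathione-degrading enzyme induced by the unfolded protein response, had 3.41, 4.22 and 8.78 against 95.8, 50.9 and 70.6. Cugbp2 (now Celf2, a splicing regulator) had 3.73, 4.31 and 5.18 against 43.7, 50.1 and 55.0, and Prrx2, a homeobox factor of mesenchyme, had 2.88, 2.49 and 1.46 against 22.0, 27.4 and 24.0. All 10 stood in CD24- cells at 6.07% to 9.92% of their CD24+ mean. Only 1.04% of the Tshz2 reads matched Tshz2 transcripts alone.

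The 10 largest falls were Pfkfb3, Dusp2, Sgk2, Itga6, Abcb11, Apbb1ip, Msrb2, Gpd2, Mertk and Sfmbt2, with log2 fold changes between -3.14 and -1.46. Dusp2, a phosphatase of MAP kinases, had 103, 116 and 92.0 RPM in CD24- and 13.1, 14.8 and 11.5 in CD24+ libraries. Sgk2, a serine kinase, had 62.1, 64.1 and 41.1 against 14.5, 8.67 and 12.1. Apbb1ip, which links Rap1 to integrin activation, had 101, 93.7 and 109 against 27.3, 38.4 and 36.1. Mertk, a receptor kinase for the uptake of dying cells, had 40.1, 42.3 and 31.8 against 14.9, 9.18 and 16.1. For Abcb11, the bile salt export pump, 7.28% of the reads matched its transcripts alone, so its level is uncertain. These genes, like the rises, were picked among those without overlap.

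The 10 lists of genes by function were taken across the chromosome, 133 fitted genes in all, of which 54 were called higher and 18 lower with a median log2 fold change of 0.19. All fitted genes of chromosome 2 had 31.5% called higher and 12.6% lower. Lists are described by these counts, and no list is singled out by them. Lcn2 and Pmepa1 were under 1 RPM in every CD24- library and Ttn in every CD24+ library, so their place in the fit may rest on the other group and their calls are no support.

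**Figure D5:**
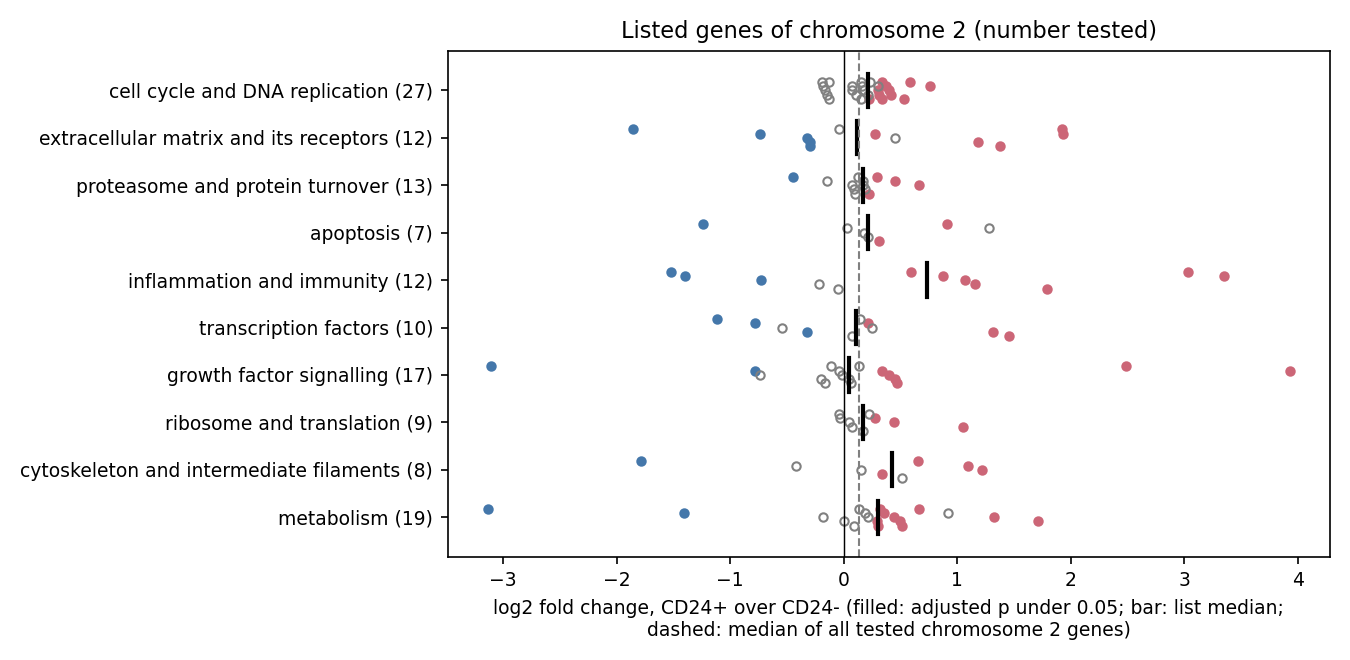
Log2 fold change, CD24+ over CD24- (horizontal axis), of the fitted genes of chromosome 2 in 10 lists (rows, number of genes in brackets), with filled points for called genes, a black bar for the median of the list and a dashed line for the median of all fitted genes of the chromosome, 0.13. Cell cycle genes lie between -0.19 and 0.76, while the matrix and the inflammation lists spread to both sides.

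Of 27 cell cycle and replication genes 11 were called higher, 0 lower and 16 were not called, with a median of 0.21. They moved little. Mcm8, a helicase of DNA repair, had the largest rise, from 20.2 ± 1.57 to 34.3 ± 1.62 RPM (0.76, standard error 0.10). Pcna had most reads, 438, 443 and 455 in CD24- and 499, 531 and 459 in CD24+ libraries, and was not called (0.16), and 50.2% of its reads matched its transcripts alone. Mybl2, a transcription factor of dividing cells, had the lowest value (-0.19) and was not called, but was called lower with CD24+ replicate 1 left out (-0.21). Other genes called higher included Bub1, Rtel1, Nusap1, Mapre1, Ube2c, E2f1, Ckap2l, Rbl1 and D2Ertd750e (now Knstrn), between 0.22 and 0.58.

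Genes of the extracellular matrix and its receptors went both ways, with 5 of 12 fitted called higher and 5 lower, and a further 11 on the chromosome had too few reads. Itga8, an integrin subunit that pairs with beta 1, had 19.1, 14.3 and 9.68 RPM in CD24- and 52.2, 45.8 and 66.2 in CD24+ libraries (1.93, standard error 0.21). Fbn1 (fibrillin, 1.92), Thbs1 (thrombospondin, 1.37), Sulf2 (1.18) and Col5a1 (0.28) were also called higher. Itga6 fell most, and Egfl7 (-0.74), Cd44 (-0.33), Itgav (-0.30) and Lama5 (-0.30) were also called lower. Integrin subunits of the chromosome were therefore found among both the rises and the falls.

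In the list of inflammation and immunity 7 of 12 fitted genes were called higher and 3 lower, with a median of 0.73. Thbd, thrombomodulin, had 1.07, 0.671 and 0.901 RPM in CD24- and 8.01, 8.05 and 10.7 in CD24+ libraries (3.35, standard error 0.26). Lcn2 (lipocalin, 3.03), Ptges (prostaglandin E synthase, 1.79), Ifih1 (an RNA sensor, 1.16), B2m (1.07), Cst3 (0.87) and Samhd1 (0.59) were also called higher. Mertk (-1.52), Nfatc2 (-1.40) and Procr (-0.73) were called lower. Ptgs1, a cyclooxygenase, had most reads, at 467 ± 56.9 against 449.8 ± 54.3, and was not called. Summed leukocyte markers lay between 46.6 and 81.5 RPM in CD24- and between 6.92 and 9.24 in CD24+ libraries, nearly all of it Cd68. Itgam went the same way, at 3.27 to 4.51 in CD24- and at most 0.0524 in CD24+ libraries. Ptprc had at most 0.105, and Cd3e and Adgre1 had 0 in every library. The part of these markers in the list was not tested.

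Transcription factors of mammary, mesenchymal and developmental programmes had 3 of 10 called higher and 3 lower. Zeb2, a repressor of epithelial genes, had 20.2, 19.8 and 22.9 RPM in CD24- and 54.4, 55.6 and 61.3 in CD24+ libraries (1.45, standard error 0.10). Cebpb (1.32) and Nfe2l2 (0.21) were the others called higher, and Nfe2l2, which regulates genes against oxidative stress and had most reads of the list, lost its call with most libraries left out (0.19 to 0.23), with no filter (0.21), with the replicate block (0.21) and with distinct sequences (0.04). Nr4a2 (-1.12), Gata3, a luminal mammary factor (-0.78), and Zfp217 (-0.32) were called lower. Summed fibroblast markers were at 5.74 to 10.5 in CD24- and 14.6 to 20.4 in CD24+ libraries. Most of the sum was Pdgfra, which overlapped between the groups, at 4.17 to 8.53 against 8.16 to 13.5. Col1a1, Col1a2 and Dcn were higher in CD24+ without overlap, at no more than 4.14. Fap had at most 0.105 and Lum 0, and the part of these markers was not tested.

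In growth factor and developmental signalling 6 of 17 were called higher and 2 lower, with a median of 0.04. Pmepa1, a target and inhibitor of TGF-beta signalling, had 0.00, 0.0959 and 0.225 RPM in CD24- and 1.23, 1.91 and 1.83 in CD24+ libraries, and Fgf7, a fibroblast growth factor, rose from 3.08 ± 0.763 to 16.9 ± 5.09 (2.49, standard error 0.26). Notch1 (0.47), Src (0.45), Acvr1 (0.39) and Spred1 (0.33) were called higher with small changes, and with distinct sequences the call of Spred1 was lost (0.24). Bmp7, a bone morphogenetic protein, fell from 7.74 ± 1.73 to 0.946 ± 0.386 (-3.11, standard error 0.32), and Prex1 was at -0.78.

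Proteasome and protein turnover genes had 4 of 13 called higher, Itch (an E3 ubiquitin ligase, 0.66), Psmc3 (0.45), Psma7 (0.29) and Usp8 (0.23), and 1 lower, the lysosomal protease Ctsz (-0.44). With distinct sequences the call of Ctsz was lost (-0.29). Hspa5 had most reads, at 1221 ± 8.49 against 1370 ± 158, and was not called (0.16). Of 9 ribosome and translation genes 3 were called higher and 0 lower. Eif2s2, a subunit of the initiation factor eIF2, rose from 250.4 ± 39.4 to 519.9 ± 54.3 RPM (1.05, standard error 0.12), and 51.7% of its reads matched its transcripts alone. With distinct sequences it was at 0.46 and its call was lost. Rps21 (0.44) and Rrbp1 (0.28) were the others, and Nop56 was at -0.04 and not called.

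Apoptosis genes had 2 of 7 called higher, Bcl2l1 (the survival protein Bcl-xL, 0.91) and Api5 (0.31), and 1 lower, Traf1 (-1.24). The call of Api5 was lost with distinct sequences (0.15) and with CD24- replicate 1 left out (0.29). Bmf, a BH3-only protein, was at 2.11 ± 1.67 against 5.16 ± 1.91 and was not called (1.28), but was called higher with CD24- replicate 1 (1.77) or CD24+ replicate 2 (1.54) left out and with no filter (1.28). In the cytoskeleton list 4 of 8 were called higher and 1 lower. Rnd3, a small GTP-binding protein that acts on the actin cytoskeleton, had 19.1, 19.7 and 26.6 RPM in CD24- and 44.8, 47.8 and 58.1 in CD24+ libraries (1.22, standard error 0.15), and Fmn1 (0.65) and Mapre1 (0.33) were among the others called higher. Ttn was called lower at a low level, 1.65 ± 0.448 against 0.533 ± 0.290.

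Of 19 metabolism genes 10 were called higher and 2 lower, with a median of 0.30. Ass1, argininosuccinate synthase, had 5.65, 5.37 and 4.62 RPM in CD24- and 17.1, 17.3 and 17.0 in CD24+ libraries (1.71, standard error 0.14), and 28.4% of its reads matched its transcripts alone. Sqrdl (1.32), Ivd (0.66), Atp5e (0.52), Uqcc (0.49), Ahcy (0.44), Dpm1 (0.36), Idh3b (0.32), Pdhx (0.30) and Cat (0.29) were also called higher. Only 0.459% of the Ahcy reads and 11.4% of the Dpm1 reads matched transcripts of their own gene alone. With distinct sequences Ahcy was at 0.11 and its call was lost. Pfkfb3 (-3.14) and Gatm, which makes the creatine precursor (-1.40), were called lower.

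Reads that carried no annotation were not part of the choice of windows but come from the same libraries and contrast. They made up 3.42%, 3.37% and 3.35% of unannotated reads in CD24- and 3.08%, 3.63% and 3.76% in CD24+ libraries, and the groups overlapped. In 189 windows with a mean of at least 5 RPM of unannotated reads, 113 had a ratio above 1, and 124 went the same way as the gene reads of their window. The median log2 ratio was 0.12, and the log2 ratios correlated with those of the gene reads at 0.50, a description over windows of the same libraries. By block, unannotated reads on the same scale did not overlap in block 7 alone (0.30). Reads annotated to repeats on the chromosome also overlapped between the groups, at 4.84% to 4.90% and 4.13% to 5.16% of all repeat reads. By block, repeat reads did not overlap in block 4 alone, where they were lower (-0.84).

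Promoters were set side by side for the parts of the chromosome. RefSeq promoters (GRCm38.p6, 250 bases before to 50 after the start) were matched by symbol for 788 of the 889 fitted genes. Their median GC content was 62.0% in blocks 1 to 4 and 61.3% in blocks 5 to 10, and the median number of CG dinucleotides was 21 in both, against 52.7% and 7 in all 27025 promoters. By call, median GC content was 62.0% for genes called higher and 63.3% for genes called lower. The median number of CG dinucleotides was 22 for genes called higher and 21 for genes called lower. The motif CACGTG, the same on both strands, was present in 8.37% of the promoters of genes called higher, 7.07% of those called lower and 10.0% of those not called. It was present in 11% of the promoters in blocks 1 to 4, 7.81% in blocks 5 to 10 and 7.24% of all promoters. Such a match is a run of letters and not a bound site. The 250 bases before the start are shown for Trim44, the largest rise among windows of at least 20 RPM, and Gpd2, a large fall. CG dinucleotides are in capitals, 39 in the first and 5 in the second, and neither holds CACGTG. The medians by call showed no such gap, so these promoters do not stand for the genes called higher or lower.
Trim44 (GRCm38.p6, chr2:102400901-102401150, minus strand): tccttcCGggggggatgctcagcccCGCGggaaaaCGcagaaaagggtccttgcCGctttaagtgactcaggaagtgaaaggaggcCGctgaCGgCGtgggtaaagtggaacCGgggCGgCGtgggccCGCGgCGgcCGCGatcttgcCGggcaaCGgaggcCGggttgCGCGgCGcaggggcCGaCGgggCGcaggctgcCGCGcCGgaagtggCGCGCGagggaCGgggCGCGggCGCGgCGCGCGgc
Gpd2 (GRCm38.p6, chr2:57237428-57237677, plus strand): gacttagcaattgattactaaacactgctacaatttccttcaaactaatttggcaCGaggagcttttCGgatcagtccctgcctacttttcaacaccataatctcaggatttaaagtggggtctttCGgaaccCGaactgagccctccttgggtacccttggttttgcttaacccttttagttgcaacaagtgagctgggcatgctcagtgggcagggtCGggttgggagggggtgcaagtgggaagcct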

How the data were processed

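RNA of CD24- and CD24+ Mvt1 cells (TruSeq v2, 51-base single-end reads, 3 plates each) was sequenced. The authors trimmed 2 nt from each end, collapsed identical reads, placed the 47-nt sequences on the genome by exact match (mm9 per the labels, mapper not given in the sources used here) and gave each a single annotation. They deposited raw counts per sequence, not normalized or pooled. Reads over exon junctions or variants are mostly missed in this way. Deposited starts count from 0, so 1 was added.

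Gene-annotated reads were summed in 500-kb windows of the start. Windows and genes of all chromosomes were fitted with edgeR 4.0.16 in R 4.3.3 (quasi-likelihood F test, filterByExpr, library size equal to gene reads, Benjamini-Hochberg adjustment, threshold 0.05), a procedure tested on simulated data. Reads were matched whole to GENCODE M21 transcripts. Libraries of a group differed beyond sampling noise (chi-square per degree of freedom between 1.75 and 15.9 for pairs of libraries). Depth was 9046025 to 25692147 reads, which limits low windows.

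Named windows were the 5 with most reads, the 5 largest rises and falls without overlap at a mean of at least 20 RPM, and the 2 nearest to 0 at 100 RPM or more, each with its leading gene. Named genes were the 10 largest rises and falls without overlap at a mean log2 level of at least 3, and in each list the most abundant gene and the largest rise and fall. Other genes are named where they were called, lie in a stretch described or bear on a named one, and were picked after their values were seen. The members and lists were chosen with earlier results of these data known. Alternatives were TMM, DESeq2 1.42.0, other filters, distinct sequences, a grid shifted by 250 kb, 1-Mb windows, the replicate block, each library left out, windows without their top gene and, chosen after seeing the data, no Myo3a reads and scaling to the other chromosomes. A few genes of the lists are counted but not reported here by name.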

Additional observations from a re-analysis of the deposited data

How the results depend on the processing

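Of 938 recomputed values for named windows and genes, 31 were no longer called and 6 newly called with the same sign, and 29 changed sign. Of these 29, 25 were not called under either setting, 10 came with distinct sequences (among them Vim at -0.07, Hspa5 at -0.19 and Pcna at -0.14) and 12 with a library left out (among them, without CD24+ replicate 1, the Myo3a window at -0.13). Also among the 25 were the windows at 13.5 Mb (Vim, -0.28) and 18.5 Mb (Bmi1, -0.15) without their leading gene. So was the window at 109.5 Mb scaled to the other chromosomes (0.0024). The other 4 of the 29, called under only 1 of the settings compared, were likewise windows without their leading gene. They were at -0.16 for 34.5 Mb (Hspa5), 0.12 for 71.5 Mb (Itga6), 0.81 for 109.5 Mb (Lin7c) and 0.30 for 179.5 Mb (Lama5), which the removal itself explains. Called windows of chromosome 2 numbered 136 (99 higher, 37 lower), 119 with distinct sequences (95 and 24), and 79 of 142 with 1-Mb windows, where fewer windows were fitted. Against the level of the chromosome 126 were called, and 82 of 177 without the leading gene of each window, again with fewer fitted. Called genes numbered 282 with distinct sequences (227 higher, 55 lower) against 392 (280 higher, 112 lower). With distinct sequences the comparison against the level of the chromosome gave 58 higher and 44 lower in place of 58 and 68, with the shifted grid 61 and 55, and without the leading genes 41 and 41. The ratio of chromosome shares was 1.08 with distinct sequences against 1.11, and the cause was not tested. Distinct sequences rose less than reads with depth. CD24+ replicate 1 had 4671639 sequences for 9046025 reads, and CD24+ replicate 3 had 10704601 for 25692147. Counts of distinct sequences therefore depend on depth in abundant genes, and the part of this in lost calls and changed signs was not tested. With each library left out, called windows numbered 118 to 139, called genes 311 to 411, windows called against the level of the chromosome 100 to 127, the median log2 fold change lay between 0.13 and 0.16 and the ratio of shares between 1.10 and 1.12. DESeq2 called 138 windows and 379 genes, TMM 137 and 398, no filter 138 and 420, and the fit without Myo3a reads 136 and 392. Replicate numbers are shared between the groups but did not pair the plates (correlations of deviations 0.0151, -0.283 and -0.328). With the replicate block 126 windows and 337 genes were called, and 110.0 windows against the level of the chromosome. Depth limits windows under 1 RPM. Genes named outside the rule for named genes were not recomputed singly.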
